A study of Mus musculus with 20 samples.

Results

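Accessible chromatin was examined at 5 genes of the cell cycle barrier to reprogramming, namely Cdkn2a, Cdkn2b, Cdkn1a, Trp53 and Mdm2. An element is a region where peaks of any of the 20 libraries overlapped by at least 1 bp, and it was taken as a member if it lay within 20 kb of the span of one of these genes in the GENCODE M21 annotation. By this rule 68 of the 335858 regions in the series were members. There were 18 at Cdkn2a, 8 at Cdkn2b, 8 at Cdkn1a, 18 at Trp53 and 24 at Mdm2, where 8 elements that lay within 20 kb of both Cdkn2a and Cdkn2b were counted under both. An element within 2 kb of an annotated start site of its gene was called a promoter element (14 elements) and the others distal (54 elements).

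Fibroblasts that receive reprogramming factors first meet a proliferation barrier. Cdkn2a encodes p16 (Ink4a), an inhibitor of CDK4 and CDK6, and from a second promoter and another reading frame p19 (Arf), which blocks MDM2, while its neighbour Cdkn2b encodes the related inhibitor p15. MDM2 is the ubiquitin ligase that degrades p53, the product of Trp53, and p53 in turn activates Cdkn1a, which encodes the CDK inhibitor p21, and Mdm2 itself. Loss of p53, p21 or the Ink4-Arf locus is known to raise the efficiency of reprogramming in fibroblasts, and pluripotent stem cells cycle with a short G1 phase.

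Chromatin accessibility was measured by ATAC-seq, which tags open DNA with the Tn5 transposase, in mouse embryonic fibroblasts (MEFs; 1 library), embryonic stem cells (ESCs; 3 libraries) and MEFs reprogrammed with retroviral Oct4 plus Nanog or Oct4 plus NanogN70. Each path had 1 library on each of 8 days, which were days 0, 1, 3 and 5 and then days 7, 8, 10 and 12. NanogN70, named NanogBiD in the paper, is NANOG with the BRG1-interacting domain of SS18 at its N-terminus, and SS18 belongs to the BAF remodeling complex. The MEFs came from E13.5 embryos of Oct4-GFP (OG2) males crossed to wild-type females of another strain, the factors were carried by pMXs retroviral vectors, and day 0 was set after both rounds of infection. The cells were then kept in iCD3 medium and, from day 7, in a medium with 2 kinase inhibitors and LIF, the same in which ESCs from OG2 embryos were kept. For the 3 ESC libraries the source field says MEF, so they were grouped by their titles: all 10 of 10 ESC marker promoters had a peak in each of them, against 4 of 10 in the MEF library. Each day of a path is 1 library of a successive time course, so the tests below compare these libraries and do not measure how a repeated infection would vary.

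The libraries held 44126 to 125467 peaks. The height of a peak is its summit pileup, the number of tags that cover the summit, and it was divided by that library's median pileup at the 14217 regions that had a peak in every one of the 20 libraries; this median was 16 to 60. This ratio is called the relative pileup here. A 0 means that no peak was called and not that the site was closed, since the depth of the libraries is unknown. In bulk material, fewer cells with an open site and less accessibility in each cell cannot be told apart. The NanogN70 library of day 3 stood apart: it had a promoter peak at all 12 of 12 T lymphocyte and leukocyte markers, with a summed relative pileup of 13.9 against 1.3 to 4.16 in the other libraries; it is named beside the values that change most without it. Without it there were 65 member elements in place of 68.

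Of the 68 elements, 8 carry most of what follows, and the sequence around the top summit of each is printed 5′ to 3′ (mm10/GRCm38, RefSeq genome sequence), with the letters of the motifs named beside it, on either strand, in capitals. Letters of other searched motifs stay in lower case. The first pair lie by Cdkn1a on the plus strand of chromosome 17 and are shown because p53 acts on this gene. At chr17:29090813-29091008, by the upstream start site of Cdkn1a, and at chr17:29078933-29079133, at the start of the lincRNA Trp53cor1, capitals mark the p53 decamer. This decamer is the unit of the p53 response element, which was searched here only as adjacent decamers with exact letters and no spacer. A p53 decamer was present within 100 bases of the summit in 6.8% of all regions and in 5 of the 68 elements.
Cdkn1a upstream start: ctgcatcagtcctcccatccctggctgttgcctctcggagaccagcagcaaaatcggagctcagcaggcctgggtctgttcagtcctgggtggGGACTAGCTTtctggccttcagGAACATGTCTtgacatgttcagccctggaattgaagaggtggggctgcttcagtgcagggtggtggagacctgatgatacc
Trp53cor1 start: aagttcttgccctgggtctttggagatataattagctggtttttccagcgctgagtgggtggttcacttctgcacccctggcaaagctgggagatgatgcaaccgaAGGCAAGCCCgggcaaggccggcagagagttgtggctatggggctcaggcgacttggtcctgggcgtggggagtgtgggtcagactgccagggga

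The next pair are start sites with a peak in every library. At chr11:69580226-69580388 on the plus strand, across the divergent start sites of Trp53 and Wrap53, capitals mark a p53 decamer and the E-box CACGTG. At chr4:89294624-89294800 on the minus strand, at the Arf start of Cdkn2a, capitals mark the GC box GGGCGG.
Trp53 and Wrap53 start: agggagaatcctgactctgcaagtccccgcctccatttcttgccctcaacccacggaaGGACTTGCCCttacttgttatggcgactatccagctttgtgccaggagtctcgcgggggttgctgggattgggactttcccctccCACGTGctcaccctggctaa
Arf start: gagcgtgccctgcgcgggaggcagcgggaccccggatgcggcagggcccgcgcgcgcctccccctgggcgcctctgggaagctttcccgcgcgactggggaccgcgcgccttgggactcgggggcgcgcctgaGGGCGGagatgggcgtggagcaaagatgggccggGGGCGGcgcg

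The last 4 lie around Mdm2 on the minus strand of chromosome 10. Capitals mark the E-box CACGTG in the element 13.1 kb beyond the 3′ end (chr10:117675675-117675895), the ETS letters CCGGAAG in the element 0.47 kb beyond the 3′ end (chr10:117688325-117688485), AP-1 TGANTCA, TEAD GGAATG and a p53 decamer 7.05 kb upstream (chr10:117717704-117717904) and AP-1 TGANTCA 10.8 kb upstream (chr10:117721505-117721625). The element with 3 E-boxes is shown because it had peaks almost throughout the time course and in neither end state, and the last one because its peak was lost over the days.
Mdm2 beyond the 3′ end: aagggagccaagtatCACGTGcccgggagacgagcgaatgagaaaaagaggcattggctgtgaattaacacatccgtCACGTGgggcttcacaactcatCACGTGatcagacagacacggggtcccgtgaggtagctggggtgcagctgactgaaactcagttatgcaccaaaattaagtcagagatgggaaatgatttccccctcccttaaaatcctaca
Mdm2 at the 3′ end: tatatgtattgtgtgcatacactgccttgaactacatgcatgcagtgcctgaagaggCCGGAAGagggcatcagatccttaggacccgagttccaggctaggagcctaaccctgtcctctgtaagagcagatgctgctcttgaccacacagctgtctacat
Mdm2 near upstream: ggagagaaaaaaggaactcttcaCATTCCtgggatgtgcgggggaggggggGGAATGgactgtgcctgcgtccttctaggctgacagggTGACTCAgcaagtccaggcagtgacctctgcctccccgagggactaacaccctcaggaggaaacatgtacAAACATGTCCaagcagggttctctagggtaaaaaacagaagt
Mdm2 far upstream: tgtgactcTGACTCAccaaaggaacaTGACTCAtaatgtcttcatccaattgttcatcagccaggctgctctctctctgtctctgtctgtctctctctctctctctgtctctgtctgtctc

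Over all 335775 regions on the assembled chromosomes, the window of 201 bases around the summit held AP-1 letters in 17.3%, an E-box in 3.72%, GC boxes in 8.52%, ETS letters in 1.9%, TEAD letters in 15.4%, CCAAT in 24.3% and the octamer ATGCAAAT in 2.65%. Of the 68 member elements, 10 held AP-1 letters, 6 an E-box, 11 a GC box, 3 ETS letters, 9 TEAD letters, 17 CCAAT and 0 the octamer. At least 3 E-boxes in 1 window, as at the Mdm2 element beyond the 3′ end, were found in 0.011% of all regions. At least 2 AP-1 matches, as at the far upstream Mdm2 element, were found in 1.78%. Both counts of matches were taken from these elements, so the shares are descriptions. The strict form of the p53 response element (adjacent decamers, no spacer) was found in 0 of the 68 windows and in 0.0185% of all windows. Forms with a spacer or a mismatched letter were not searched. The decamers in capitals at the upstream Cdkn1a start have other bases between them, so they were not counted as an element. The 0 therefore does not show that p53 sites are absent.

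All 5 genes had a promoter peak in all 20 libraries, as did 54.1% of 21911 protein-coding genes, so none of the barrier genes was without accessible promoter chromatin in MEFs, in ESCs or on any day of either path. Of the 68 elements, 8 had a peak in all 20 libraries, against 4.23% of all regions, and 7 of these 8 were promoter elements. Of the 54 distal elements, 1 had a peak in all 20 libraries. The counts that follow take promoter and distal elements together. There were 22 elements of the 68 with a peak in 1 library only, a smaller share than the 41.4% of all regions. A peak in at least 2 ESC libraries and none in MEF was found at 11 (16.5% of all regions), 6 of them with none in the time course either (10.9%). A peak in MEF and none in ESC was found at 9 (22.2%). The time course alone held 1 element with peaks in at least 8 of its 16 libraries, against 1.76% of all regions. In the heat map of relative pileups, 7 promoter rows and 1 distal row were filled throughout. Of the other promoter rows shown, the Ink4a start of Cdkn2a had a peak in 19 libraries and the upstream Cdkn1a start in 5.

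**Figure D1:**
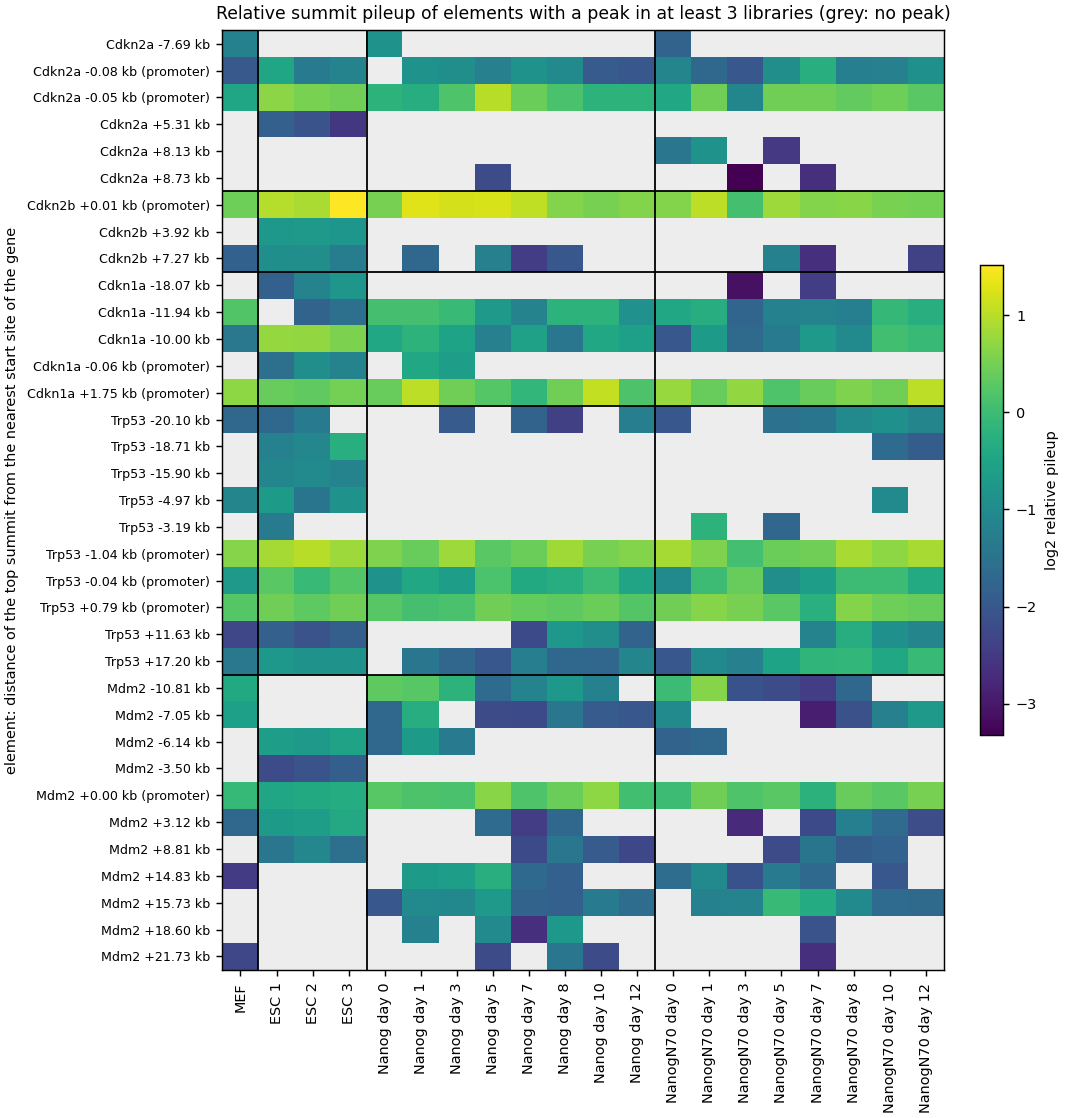
Relative summit pileup (log2 colour scale, grey where no peak was called) of the elements with a peak in at least 3 libraries, in rows by gene and by distance of the top summit from the nearest start site, with the 20 libraries in columns. The 7 promoter rows with a peak in every library were 2 of Cdkn2a and Cdkn2b, 1 of Cdkn1a, 3 of Trp53 and 1 of Mdm2, and most distal rows are grey in part.

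Between the paths, 167 of 544 pairs of a member element and a day had a peak with NanogN70 and 158 with Nanog. The share was 30.7% against 29%, and over all regions it was 19.1% against 17%. Promoter elements contributed 67 pairs in each path, and the difference of 9 pairs came from distal elements (100 with NanogN70, 91 with Nanog). The difference did not keep its sign when each library was limited to the same number of top peaks, where it was -2 pairs, and it was 4 to 14 pairs when single days were left out (4 without day 3, whose NanogN70 library stood apart).

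For tests, 19 of the 68 elements had a peak in at least 8 of the 16 time course libraries, as did 12.9% of all regions, and the fits were made over all 43477 such regions with Benjamini-Hochberg adjustment. The path difference (log2 relative pileup + 0.1, NanogN70 minus Nanog, exact sign-flip permutation test over 8 days) gave 0 calls among the 19 elements and 0% of all regions. An unadjusted p under 0.05 was reached by 2 of the 19, against 20% of all regions, and by 3 without day 3, against 14.8% of all regions in that fit. Leaving out single days turned the sign of the path difference at 6 of the 19, all of them elements with a mean difference under 0.1 in size. The smallest p this test allows is 0.00781, and a call would have needed 6794 regions at that p, where 1720 had it. The median path difference of the 19 was 0.05, against -0.04 over all regions. For the slope with day (exact permutation test over the orders of the 8 days), 0 of the 19 rose and 1 fell, against 4.55% and 11.2% of all regions. For ESCs against the time course (exact permutation test over the choices of 3 among 19 libraries), 2 were higher and 3 lower, against 7.07% and 6.76% of all regions. Regions were admitted by their time course peaks, so one without any ESC peak had to be lower in ESCs, and this holds for 1 of the 3 lower elements. These 5 calls were also made without the NanogN70 library of day 3, and 0 were made with any one of the 3 ESC libraries left out, where the smallest p the test allows is 0.00654. The median ESC difference of the 19 was 0.29, against -0.18 over all regions, and the median slope 0.03 per day, against -0.02.

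The Ink4-Arf-Ink4b locus had 3 start sites with a peak. The Ink4a start (chr4:89281962-89282608, in an intron of the Arf transcript) was the lowest. Its relative pileup was 0.256 in MEF and 0.719, 0.395 and 0.448 in the ESC libraries. With Nanog it was 0, 0.562, 0.522, 0.429, 0.553, 0.5, 0.261 and 0.25 from day 0 to day 12, and with NanogN70 0.458, 0.312, 0.25, 0.522, 0.816, 0.423, 0.429 and 0.537. The paths overlapped, with a mean difference of 0.36 ± 1.04 on the log2 scale (SD over 8 days) and an exact permutation p of 0.406. Day 0, with no peak in the Nanog library, had the widest gap between the paths, and without day 0 the mean difference was 0.06.

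The Arf start (chr4:89294085-89295723) was higher in every library than the Ink4a start. Its relative pileup was 0.718 in MEF and 1.59, 1.45 and 1.38 in the ESC libraries. With Nanog it was 0.875, 0.812, 1.13, 2, 1.34, 1.09, 0.87 and 0.875 over the 8 days, highest on day 5, and with NanogN70 0.75, 1.38, 0.467, 1.39, 1.39, 1.27, 1.36 and 1.22. From day 8 to day 12 all 3 NanogN70 values lay above the Nanog values of the same days, but over all days the difference was 0.02 ± 0.61 (exact permutation p = 0.93). The low value of NanogN70 on day 3 belongs to the library with the lymphocyte marker peaks, and without day 3 the difference was 0.18 ± 0.43 (exact permutation p = 0.312). Leaving out any one of 4 days turned its sign. The ESC difference of 0.40 on the log2 scale did not pass (adjusted p = 0.265, exact permutation test).

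Cdkn2b (chr4:89310087-89311328, at its only annotated start) had the highest mean promoter level of the 5 genes. The relative pileup was 1.36 in MEF and 1.97, 1.87 and 2.86 in ESCs. With Nanog it was 1.44, 2.44, 2.3, 2.32, 2.08, 1.53, 1.43 and 1.54, and with NanogN70 1.54, 2.06, 1.07, 1.74, 1.53, 1.58, 1.46 and 1.41. The Nanog values were above NanogN70 on 5 of 8 days, from day 1 to day 7 and on day 12, with the widest gap on day 3, in the NanogN70 library with the lymphocyte marker peaks, and the mean difference was -0.26 ± 0.37 (exact permutation p = 0.0859). Without day 3 it was -0.14 ± 0.21 (exact permutation p = 0.172). Neither passed the threshold.

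Some distal elements of this locus had peaks in one end state and few or none elsewhere. In an exon of Cdkn2b, chr4:89306777-89307319 had pileups of 19, 23 and 17 in the ESC libraries and no peak in the other 17 libraries. In a coding exon of Cdkn2a, chr4:89276605-89276977 did likewise with 9, 9 and 5. The opposite case was chr4:89302157-89302436, 7.69 kb upstream of the Arf start, with a pileup of 17 in MEF, 9 on day 0 with Nanog, 7 on day 0 with NanogN70 and no peak from day 1 on or in ESCs. Another MEF element (chr4:89257891-89258115, in an intron of the lincRNA Gm12606) had 13 in MEF and 5 on day 0 with Nanog. The element chr4:89303473-89303874 between both genes had a peak in MEF (11), in ESCs (17, 20 and 12), on 4 days with Nanog and on 3 with NanogN70, at pileups of 5 to 12. Peaks of 9, 9 and 4 on days 0, 1 and 5 with NanogN70, and none with Nanog, made chr4:89273967-89274352 the Cdkn2a element with the largest difference in days between the paths. Peaks of 7 in 2 ESC libraries alone were found at chr4:89303009-89303208, and chr4:89289319-89289457 had a peak of 7 in the NanogN70 library of day 3 alone. Around the Ink4a start, 3 small promoter elements had a pileup of 6 in 1 library each. These were chr4:89281678-89281885 with Nanog on day 5, chr4:89282835-89282956 with NanogN70 on day 1 and chr4:89283544-89283678 in the third ESC library.

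**Figure D2:**
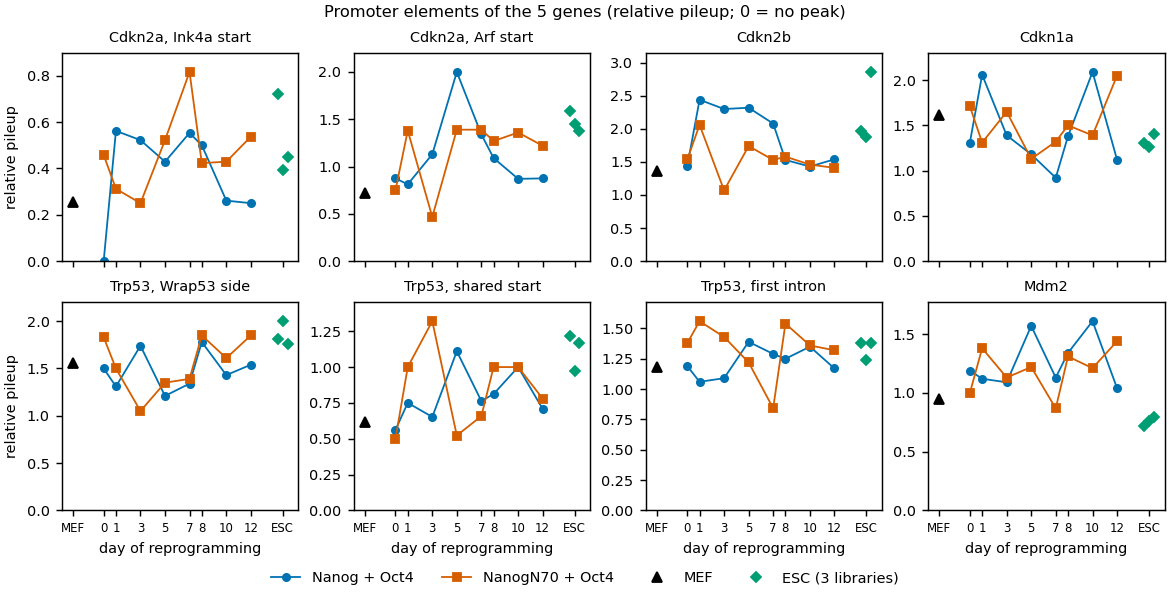
Relative summit pileup (vertical axis, 0 where no peak was called) of 8 promoter elements against the day of reprogramming, with the MEF library at the left and the 3 ESC libraries at the right of each panel. In each panel the higher path changes at least once over the days, and at Mdm2 the ESC points lie below all 16 time course points.

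At Cdkn1a the main promoter element (chr17:29093122-29095990) covers the start site used by the p21 transcript Cdkn1a-201 and the front of the intron behind it. Its relative pileup was 1.62 in MEF and 1.31, 1.26 and 1.41 in ESCs. It was 0.921 to 2.09 with Nanog (median 1.34) and 1.13 to 2.05 with NanogN70 (median 1.45). The MEF and ESC values lay within the range of the time course, and the path difference was 0.10 ± 0.49 (exact permutation p = 0.594). The tallest summit was in the intron in MEF and at the start site in ESCs, so these values mix both sites.

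The element had a summit at the start site in 19 libraries and another in the intron, 1.75 kb further, in all 20. This split was looked at after the values were seen and has no test. In MEF the pileup was 42 at the start site and 63 in the intron. In ESCs it was 42, 48 and 41 at the start site and 20, 19 and 16 in the intron. The ratio of intron to start site was 1.5 in MEF and 0.476, 0.396 and 0.39 in ESCs. In the time course it was 0.606 to 1.5 in 14 libraries and 0.476 in NanogN70 on day 12, the one library at the level of ESCs. NanogN70 on day 3 had 99 in the intron and no separate summit at the start site. AP-1 letters lay 46 bases from the top intron summit.

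**Figure D3:**
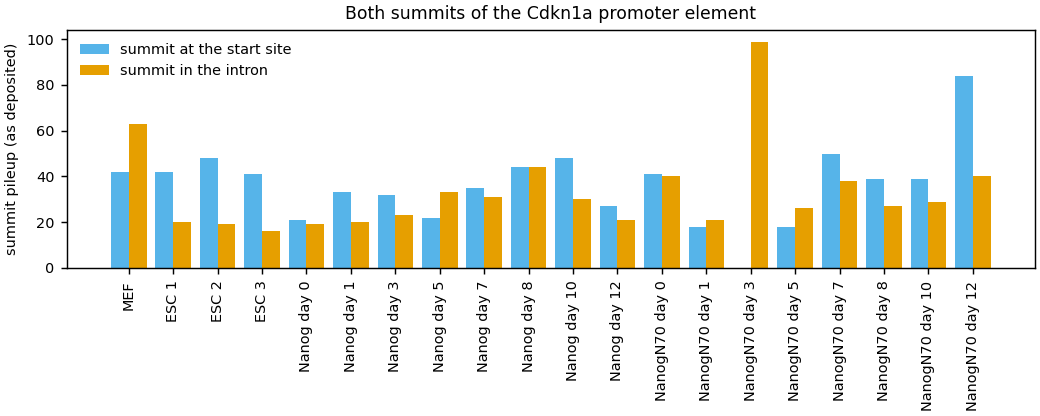
Summit pileup as deposited (vertical axis, not scaled for depth) at the start site and in the intron of the Cdkn1a promoter element, in each library (horizontal axis). The intron bar is the taller one in MEF (63 against 42) and the shorter one in all 3 ESC libraries.

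The upstream start site of Cdkn1a (chr17:29090780-29091083), which bears the p53 decamers printed above, had a peak in the ESC libraries (11, 20 and 13) and with Nanog on day 1 (12) and day 3 (15). It had none in MEF, on the other 6 Nanog days or on any of 8 NanogN70 days. It was in too few libraries for a test. Further upstream, the lincRNA gene Trp53cor1, known as lincRNA-p21 and itself a p53 target, starts in chr17:29078140-29079550. There the relative pileup was 1.15 in MEF and 0, 0.289 and 0.345 in ESCs, against 0.447 to 1.06 with Nanog (median 0.872) and 0.3 to 0.929 with NanogN70 (median 0.599), with the lowest value in the NanogN70 library of day 3. It was lower in ESCs than in the time course by a log2 difference of -1.57 (adjusted p = 0.0212, exact permutation test). One ESC library had no peak, and the difference was -0.89 without it (ESC replicate 1). Without a scale the call was lost (adjusted p = 0.0938, exact permutation test).

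Its neighbour chr17:29080627-29081948, 10 kb upstream of the upstream Cdkn1a start, went the other way. The relative pileup was 0.385 in MEF and 1.69, 1.66 and 1.48 in ESCs. It was 0.375 to 0.875 with Nanog (median 0.69) and 0.25 to 1.04 with NanogN70 (median 0.553). The ESC values lay above all 17 others, with a log2 difference of 1.32 from the time course (adjusted p = 0.013, exact permutation test). With scores of at least 100, or with the same number of top peaks in each library, the difference was 1.57 in both fits and the adjusted p 0.0792 and 0.0716 (exact permutation tests). The 2 highest NanogN70 values were those of days 10 and 12 (1.04 and 0.976), and the slope over both paths did not pass (0.04 per day, exact permutation p = 0.211).

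The other 4 Cdkn1a elements were tied to few libraries. In the Trp53cor1 gene, chr17:29072619-29073337 had pileups of 9, 17 and 17 in ESCs and of 7 with NanogN70 on days 3 and 7, and none with Nanog. Close by, chr17:29074114-29074385 had 13 and 11 in the first and second ESC libraries only. The element chr17:29081954-29082361 had a pileup of 59 with NanogN70 on day 3 and no peak in any other library. That library is the one with the T lymphocyte marker peaks, whose part in this peak was not tested. At the 3′ end of Cdkn1a, chr17:29100506-29100754 had 6 in 1 ESC library and 6 with Nanog on day 0.

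Trp53 starts back to back with Wrap53, a gene on the other strand whose antisense transcript is known from human cells to stabilise the p53 mRNA. Its 3 promoter elements had a peak in all 20 libraries, and the level of the tallest summit among them, taken in each library, varied little: its log2 SD over the libraries was 0.176, and 1.61% of 14816 protein-coding genes had a smaller one. Each element by itself varied more, with log2 SDs over the time course of 0.22, 0.36 and 0.20 in the order below. The tallest element lay in the Wrap53 gene, 1.04 kb upstream (chr11:69578773-69579673), with a relative pileup of 1.56 in MEF, 1.81, 2 and 1.76 in ESCs, 1.21 to 1.78 with Nanog and 1.05 to 1.85 with NanogN70. The shared start itself (chr11:69579876-69580551) was lower, at 0.615 in MEF, 1.22, 0.974 and 1.17 in ESCs, 0.562 to 1.11 with Nanog and 0.5 to 1.32 with NanogN70. The first intron (chr11:69580902-69582300) had 1.18 in MEF, 1.38, 1.24 and 1.38 in ESCs, 1.06 to 1.39 with Nanog and 0.842 to 1.56 with NanogN70. Path differences of these 3 elements were 0.05, 0.05 and 0.10 on the log2 scale with SDs over days of 0.31, 0.54 and 0.34. The NanogN70 library of day 3 had the lowest value of that path at the Wrap53 element and the highest at the shared start, and without day 3 the differences were 0.16, -0.07 and 0.06 (exact permutation p = 0.0156, 0.781 and 0.672, adjusted p = 0.241, 0.912 and 0.859). None of the ESC differences passed (adjusted p = 0.146, 0.158 and 0.657, exact permutation tests).

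The other tested elements around Trp53 lay at neighbouring genes, and none of them had a call. The element at the start of Atp1b2, a subunit gene of the sodium pump (chr11:69605229-69606155, 14 kb beyond the end of Trp53), was higher with NanogN70 on 8 of 8 days, as were 1.18% of all regions tested. Its relative pileup was 0, 0.375, 0.304, 0.25, 0.421, 0.312, 0.304 and 0.458 with Nanog and 0.25, 0.5, 0.433, 0.696, 0.895, 0.923, 0.75 and 0.976 with NanogN70. It was 0.385 in MEF and 0.594, 0.553 and 0.552 in ESCs, so the NanogN70 values from day 5 on lay above the ESC values. The mean path difference was 1.00 ± 0.48 (log2, SD over 8 days), with the smallest exact permutation p the test allows (0.00781) and an adjusted p of 0.165, which did not pass. Its slope of 0.11 per day did not pass either (adjusted p = 0.0571, exact permutation test), except with summed summits (adjusted p = 0.0458). With the median of all summits as the scale, and without a scale, the adjusted p was 0.157 and 0.114 (exact permutation tests). No member element was higher with Nanog on 8 of 8 days, against 2.78% of all regions.

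In the 3′ UTR of Atp1b2, chr11:69599917-69600519 had no peak on days 0 to 5 in either path and a peak on days 7 to 12 in both, a pattern of 1 of the 68 elements and of 0.0128% of all regions. The pattern was defined after these values were seen, so its share is a description. The pileups on days 7, 8, 10 and 12 were 8, 19, 12 and 7 with Nanog and 17, 21, 15 and 19 with NanogN70. MEF had 8 and the ESC libraries 9, 9 and 8. The slope was 0.27 per day on the log2 scale (exact permutation p = 0.0161, adjusted p = 0.075), which did not pass. The element near the start of Efnb3, an ephrin ligand gene (chr11:69559901-69560507), had a peak on 4 Nanog and 6 NanogN70 days, with a slope of 0.15 per day (exact permutation p = 0.0152, adjusted p = 0.0725). Its path difference was 0.78 ± 1.46, and 1.16 ± 1.07 without day 3 (exact permutation p = 0.156 and 0.0312, adjusted p = 0.401 and 0.241).

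Distal elements at Trp53 with peaks in ESCs and none in MEF were chr11:69564190-69564766 in an intron of Wrap53, with pileups of 15, 19 and 13 in ESCs and no peak in the time course, and chr11:69561310-69561823, with 14, 18 and 24 in ESCs, 9 and 11 with NanogN70 on days 10 and 12 and no peak with Nanog. In another intron of Wrap53, chr11:69575312-69575556 had a peak in MEF (18) and in ESCs (20, 14 and 16) but in 1 of the 16 time course libraries, NanogN70 on day 10 (14). The MEF-only elements chr11:69560940-69561141 and chr11:69599719-69599858 had pileups of 8 and 5 there and no peak elsewhere. The lowest summit pileup of any peak in the MEF library was 4.

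At Mdm2 the promoter element (chr10:117709701-117711174) holds 8 of the 9 annotated transcript starts. The gene is known to have a p53-responsive promoter in its first intron besides the upstream one. The relative pileup was 0.949 in MEF and 0.719, 0.763 and 0.793 in ESCs. It was 1.04 to 1.61 with Nanog (median 1.16) and 0.868 to 1.44 with NanogN70 (median 1.22). The tallest summit was not at the same site in every library. In MEF it lay at position 117710163 (pileup 37, against 36 at 117710904). In the ESC libraries it lay at 117710889, 117710714 and 117710707 (23, 29 and 23), against 13, 14 and 12 at 117710164, 117710115 and 117710197. The values and the ESC difference therefore mix sites, and no site was tested by itself. All 16 time course values lay above the 3 ESC values, with a log2 difference of -0.62 (adjusted p = 0.013, exact permutation test), while the paths differed by -0.07 ± 0.31 (exact permutation p = 0.531). Besides the fits without an ESC library, the ESC call was lost under 3 alternatives: with the median of all summits as the scale the difference was -0.61 (adjusted p = 0.125), without a scale -0.38 (adjusted p = 0.373) and with summed summits -0.66 (adjusted p = 0.163, exact permutation tests). Mdm2 was the only one of the 5 main promoters with a call for ESCs.

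The element with 3 E-boxes beyond the 3′ end (chr10:117675519-117676136, in an intron of the carboxypeptidase gene Cpm, by an internal start of that gene) had a peak in neither MEF nor any ESC library and in 15 of the 16 time course libraries. With Nanog the pileups were 4, 8, 11, 17, 11, 9, 9 and 8 and the relative pileup was highest on day 5 (0.607). With NanogN70 they were 0, 7, 27, 22, 30, 13, 9 and 13, with the highest relative pileup also on day 5 (0.957). It entered the tests through its time course peaks alone, so its lower ESC value is a description and no p or fold is given. Next to it, chr10:117676153-117677132 had 7 in MEF, none in ESCs and a peak in 11 time course libraries, none of them after day 10.

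A further pair of elements was open in ESCs. Just beyond the 3′ end of Mdm2, chr10:117688256-117688595 had a relative pileup of 0.308 in MEF, 0.625, 0.658 and 0.759 in ESCs and 0 to 0.423 in the time course, with a peak in 8 of 16 libraries. The log2 difference of 2.04 (adjusted p = 0.013, exact permutation test) depends on the value added to libraries without a peak, and the call was lost without a scale (adjusted p = 0.203, exact permutation test). With scores of at least 100, or with the same number of top peaks, the element was not among those tested. In the body of Mdm2, chr10:117697500-117697856 had pileups of 21, 23 and 20 in ESCs, 5, 10 and 9 with Nanog on days 0, 1 and 3 and 7 and 5 with NanogN70 on days 0 and 1. It had no peak on any later day in either path or in MEF. An intronic element of Cpm (chr10:117682546-117682845) had 12, 18 and 10 in ESCs and a peak on 4 days of each path, none before day 5.

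Upstream of Mdm2 lay a pair of elements with a peak in MEF and none in ESCs. The far upstream element with AP-1 letters (chr10:117721453-117721799) had a relative pileup of 0.769 in MEF and no peak in ESCs. With Nanog it was 1.25, 1.19, 0.87, 0.321, 0.447, 0.594, 0.435 and 0 over the 8 days. With NanogN70 it was 1, 1.56, 0.233, 0.217, 0.184, 0.308, 0 and 0, lower than with Nanog on 6 of 8 days. It fell by 0.27 per day on the log2 scale (adjusted p = 0.0206, exact permutation test), the one call for a trend among the 19 elements. The fall kept its sign without any of the days, at 0.23 to 0.29 per day, but its adjusted p rose to 0.0529 to 0.0976 without day 0, 1, 7, 10 or 12. The call was also lost with the same number of top peaks in each library. The path difference was -0.75 ± 0.89 (exact permutation p = 0.0469, adjusted p = 0.234), which did not pass. Without day 3 it was -0.64 (exact permutation p = 0.0938).

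The near upstream element (chr10:117717422-117718039), with AP-1, TEAD and p53 decamer letters, had a relative pileup of 0.667 in MEF and no peak in ESCs. It had a peak on 7 Nanog days, at pileups of 5 to 13, and on 5 NanogN70 days, at 5 to 25, the highest on day 12. Its slope of 0.06 per day did not pass (exact permutation p = 0.412). Peaks on 4 Nanog days and 1 NanogN70 day made chr10:117672732-117673232 the Mdm2 element with the largest difference in days. Within the gene, chr10:117694904-117695068 had 7, 9 and 8 in ESCs only, and the other promoter elements were chr10:117708794-117709131 (9 and 8 with NanogN70 on days 0 and 1) and chr10:117692264-117692453 (8 in 1 ESC library, 5 with Nanog on day 1). The element chr10:117669364-117670015 had 8 in MEF and 5 to 12 in 4 time course libraries. The remaining 11 Mdm2 elements had a peak in 1 or 2 libraries each.

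**Figure D4:**
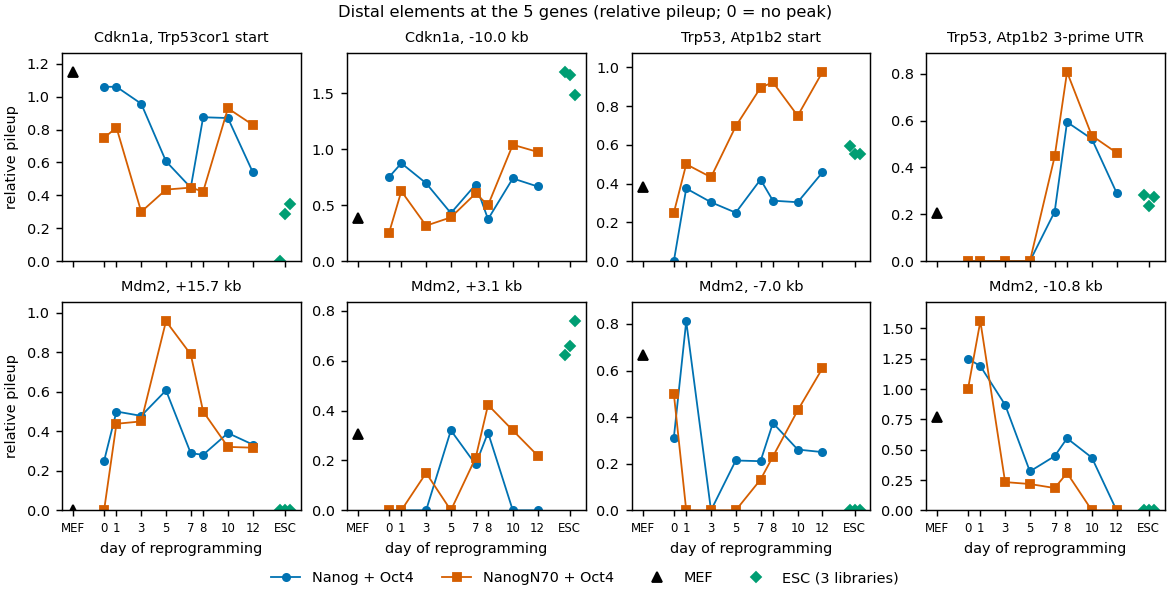
Relative summit pileup (vertical axis, 0 where no peak was called) of 8 distal elements against the day of reprogramming, with MEF and the 3 ESC libraries at the sides. The NanogN70 line lies above the Nanog line on 8 of 8 days at the Atp1b2 start, and the far upstream Mdm2 element drops from 1.25 and 1 on day 0 to no peak on day 12.

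Ranked by the mean relative pileup of the tallest summit within 2 kb of a start, the promoters stood in the order Cdkn2b (1.78), Trp53 (1.6), Cdkn1a (1.46), Cdkn2a (1.17) and Mdm2 (1.14), against a median of 0.574 over 21911 protein-coding genes. The ranges over the libraries, 1.07 to 2.86, 1.31 to 2, 0.921 to 2.09, 0.467 to 2 and 0.719 to 1.61, overlapped between all neighbours in this order. The genes on other chromosomes whose promoter level followed each most closely over the 20 libraries were Epb41l5, Txnrd3 and Hoxc13 for Cdkn2a (Pearson r = 0.879, 0.866 and 0.85), Rassf4, Cpe and Arhgap42 for Cdkn2b (0.813, 0.8 and 0.799) and Tgm2, 1700017B05Rik and Pafah2 for Cdkn1a (0.699, 0.666 and 0.638). For Trp53 they included Cyp1a1 and 4430402I18Rik (0.792 and 0.761), and for Mdm2 they were Isca1, Map3k11 and Pcnx3 (0.91, 0.9 and 0.9). These are descriptions of 20 libraries that share depth and scale.

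Other genes of the pathway were taken by their tallest promoter region in the same fits. Among all regions tested, promoter and distal together, 4.55% rose, 11.2% fell, 7.07% were higher and 6.76% lower in ESCs. The counts of each list below are to be read against these shares. No share over promoter regions alone was computed, so the shares are not a matched background for the lists. These genes were chosen with earlier results of these data known, and the calls of single genes were not repeated under alternatives. Of the 5 further CDK inhibitors, all with a promoter peak in every library, Cdkn1c rose (0.08 per day, adjusted p = 0.0233), Cdkn2c fell (-0.03 per day, adjusted p = 0.0215) and Cdkn2d was lower in ESCs (log2 difference -0.62, adjusted p = 0.0212), all by exact permutation tests. Unadjusted path p under 0.05 were found for 1 of these 5 genes, 2 of the p53 regulators, 4 of the p53 targets, 3 of the G1/S genes and 1 of the Ink4-Arf regulators, against 20% of all regions tested. The median path differences of the 5 lists, in the same order, were -0.04, 0.05, 0.03, 0.05 and 0.03. Of 12 regulators and relatives of p53, 11 had a promoter peak and Trp63 had none. The tallest promoter region of Wrap53 is the one already counted for Trp53, and its path difference of 0.05 is the median of this list. The kinase gene Atr rose (0.03 per day, adjusted p = 0.0279, exact permutation test). The acetyltransferase gene Kat5 was lower in ESCs (-0.82, adjusted p = 0.0212, exact permutation test). The largest path difference of this list was that of Mdm4, the p53-binding relative of Mdm2, at -0.37 (exact permutation p = 0.00781), without a call.

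All 20 p53 target genes had a promoter peak, 18 of them in every library. By the exact permutation test with Benjamini-Hochberg adjustment 0 rose and 0 fell with day, against 4.55% and 11.2% of all regions tested. In ESCs 2 were higher and 7 lower, against 7.07% and 6.76%, shares that include distal regions. Gadd45a, a growth arrest gene, and Tigar, a glycolysis regulator, were higher, by 0.71 and 0.88 on the log2 scale. Lower were the cell death genes Bax (-0.93), Bbc3 (-0.32) and Fas (-1.86), the sestrins Sesn1 (-0.50) and Sesn2 (-0.70), the antiproliferative gene Btg2 (-0.65) and the polo-like kinase gene Plk2 (-0.64), with adjusted p of 0.013 to 0.0288 (exact permutation tests). The count of 7 changed with several choices: it was 1 with the median of all summits as the scale, 0 without a scale and 2 with the sum of summits, and 0 without any one ESC library. It was 7 without the NanogN70 library of day 3. The median ESC difference of the list was -0.01, against -0.18 over all regions. The largest path differences in this list were those of Phlda3 (-0.40), Tigar (0.38), Plk3 (0.35) and Btg2 (0.33), none of them called.

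Of 17 genes of the G1/S machinery, all with a promoter peak in every library, the cyclin gene Ccne1 rose (0.04 per day, adjusted p = 0.0398, exact permutation test) and the cyclin gene Ccnd2 fell (-0.05 per day, adjusted p = 0.0456, exact permutation test). In ESCs Cdk6, whose kinase is inhibited by p16 and p15, was higher (0.93, adjusted p = 0.013), and Ccnd2 and Ccnd3 were lower (-0.66 and -0.35, adjusted p = 0.0212 and 0.0387), by exact permutation tests. The largest path differences of this list were those of Ccnd2 (0.41), E2f5 (-0.32) and Rb1 (-0.31), without a call. Of 15 regulators of the Ink4-Arf locus, the Polycomb genes Bmi1 (0.12 per day) and Ezh2 (0.04 per day) and the repressor gene Zbtb7a (0.05 per day) rose, with adjusted p of 0.017, 0.0279 and 0.0361, and Ets1, an activator of Ink4a, and Jdp2 were lower in ESCs (-0.76 and -0.74, adjusted p = 0.0212 and 0.013, exact permutation tests). The 3 rises and 2 lower values among 15 genes stand against 4.55% and 6.76% of all regions tested. The count of 3 rises was 0 with the median of all summits as the scale, without a scale and without day 7, 8, 10 or 12, and 1 without day 1 or with regions in at least 2 of 16 libraries. The largest path difference in this list was that of Tbx3, a repressor of the locus, at -0.67 (exact permutation p = 0.00781), without a call. The genes with calls in these lists were named after their values were seen.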

How the data were processed

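ATAC-seq peaks of 20 mouse libraries were used. Per the labels and the study's methods, the authors trimmed reads with Trim Galore 0.6.4, mapped them to mm10 with Bowtie2 2.4.5, used SAMtools 1.16.1 to drop mitochondrial, repetitive and poorly mapped reads and called peaks in each library alone with MACS 1.4.2, keeping all duplicates. The deposited peak score is the MACS p-value as -10 log10 (at least 50 in every file). The deposited signal of a summit is the pileup, a coverage in tags that the authors did not scale for depth. The depth is unknown. Replicates were not pooled.

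Peaks sharing at least 1 bp were merged, and a region took the pileup of its tallest summit in each library. The members and lists were chosen with earlier results of these data known. Start sites and annotation came from GENCODE M21, and sequences from the GRCm38 genome of RefSeq. Regions with a peak in at least 8 of 16 time course libraries were tested on log2(relative pileup + 0.1), so folds of low sites are understated. The tests were two-sided and exact: 256 sign flips of the daily path differences, 40320 orders of the 8 days for the slope of the mean of both paths, and 969 choices of 3 among 19 libraries for ESCs. Adjusted p-values follow Benjamini-Hochberg over all 43477 regions, with a threshold of 0.05. The code was tested on simulated data.

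All 14 promoter elements were named, and distal elements were, per gene, the 2 with peaks in most libraries, the 2 strongest with ESC and no MEF peak or the reverse, and the 2 with the largest difference in days between paths. A further 7 distal elements (at the 3′ UTR of Atp1b2, in a Wrap53 intron, at the 3′ end of Cdkn1a and 4 at Mdm2) were named after their values were seen. For each gene the 3 most alike promoters were named, of which 1 is not reported here. Alternatives changed the added value, the scale, the filter, the summit value, the score minimum, the number of peaks, the window and the libraries used. Peaks on 14 unplaced sequences were not used for motifs. Python 3.11.15, NumPy 2.4.6 and pandas 2.3.3 were used.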

Additional observations from a re-analysis of the deposited data

How the results depend on the processing

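The count of path calls among the member elements was 0 in each alternative run, in a test too coarse to call any of the 43477 regions as reported, so this says nothing about stability. The 5 ESC calls became 3 with the median of all summits as the scale, 1 without a scale, 9 with regions in at least 2 of 16 libraries, 2 with scores of at least 100, 2 with the same number of top peaks and 0 without any one ESC library, where 2 libraries allow too few choices for a small p; without the NanogN70 library of day 3, an alternative chosen after seeing the data, they were 5. The 1 call for a trend became 2 with summed summits, 0 with the same number of top peaks and 0 to 1 with single days left out. The 68 elements became 39 with scores of at least 100 and 137 in a window of 50 kb. The surplus of 9 element and day pairs with NanogN70 was 5 with scores of at least 100, -2 with the same number of top peaks, 5 and 25 in windows of 10 and 50 kb, and 4 to 14 with single days left out. Of the path differences of all 19 elements, 6 turned sign with single days left out. The scale without division moved the median ESC difference of all regions from -0.18 to 0.12. Depth limits all absences: a library with few peaks misses weak sites.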
